A study of Mus musculus with 4 samples.

Results

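Bone matrix and osteoclast transcripts were followed in the heart ventricles of mouse embryos that lacked the histone deacetylase HDAC2 and of their wild-type littermates. The 10 genes were Ibsp, Dmp1, Ctsk, Spp1, Sp7, Runx2, Alpl, Acp5, Phex and Sparc, and they were taken up because Ibsp, Dmp1 and Ctsk read lower in the mutant. That same contrast therefore chose them, and their differences between genotypes are given here as a description, with no p-value. Of the 10 genes, 8 were named alone by a probe set, with 14 probe sets among the 34945 that name 1 of 18193 genes. Spp1 and Runx2 had no such probe set in the annotation used and were not analysed here.

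Bone is built by osteoblasts, which secrete type I collagen and acidic phosphoproteins that bind calcium, and which become osteocytes once walled into the matrix. It is resorbed by osteoclasts, large cells of the macrophage lineage that acidify the bone surface and digest the matrix with proteases. Healthy ventricular muscle does not mineralise, although its fibroblasts and valves make collagen and some of the same matrix proteins.

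RNA was measured on 4 one-colour Affymetrix MOE430v2 arrays, 2 from wild-type (WT) and 2 from HDAC2 knockout (KO) ventricles at embryonic day 17.5, in embryos of a C57BL/6 X SV129 background. Each WT array took tissue pooled from 2 embryos and each KO array tissue pooled from 3, so pool size and genotype cannot be told apart. The sources used here do not describe the mutant allele or say whether it was removed in every cell. Groups were taken from the sample titles, since the source field names wt for the KO samples as well. Hdac2 itself read 451 and 425 on the WT arrays, and KO gave 0.3 and 0.2 at probe set 1449080_at, with a Present call on the WT arrays alone. The share of probe sets called Present was 42.4% to 43.7% on the 4 arrays. All 15 listed cardiac muscle genes were Present on every array, with a summed signal of 144820 and 141953 in WT, then 139363 and 146595 in KO.

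Ibsp encodes bone sialoprotein, an acidic glycoprotein that binds hydroxyapatite and integrins and is made by osteoblasts as mineral first forms. Its brighter probe set, 1417484_at, had MAS5 signals of 206 and 192 on the WT arrays against 1.1 and 0.2 on the KO arrays. The detection p-value was 0.000244 on both WT arrays and 0.944 and 0.9998 on the KO arrays. The WT arrays were close to each other, both KO arrays lay far below them, and neither KO signal was distinguishable from background. Here KO carries only a bound. Each KO array was counted at its own signal or, where higher, at the lowest signal it called Present (6.2 and 6.0). On that count the signal was at least 32.6-fold lower. The count is a convention, used for each such fold below, since a probe set can go undetected at signals above those lowest ones. At the dimmer probe set, 1417485_at, the signals were 48.9 and 53.6 in WT, with KO at 8.7 and 17.0. Those KO signals were not called Present and stood above 6.2 and 6.0, so the 4.21-fold gap was taken from them as read. Both probe sets of Ibsp were thus detected in WT alone, with different sizes of the gap.

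Dmp1 encodes dentin matrix protein 1, a phosphoprotein of osteocytes and of tooth dentin. Probe set 1443746_x_at read 56.8 and 64.1 on the WT arrays, and KO gave 0.6 and 0.9, at least 9.89-fold lower. Probe set 1443745_s_at read 34.2 and 33.0 for WT, against KO signals of 0.3 and 0.4, at least 5.51-fold lower. At both, the WT arrays were Present, the KO arrays were not, and the groups were well apart. The remaining Dmp1 probe set, 1426005_at, did not show this: it read 23.4 and 4.3 in WT, with KO at 14.0 and 2.1, with a Present call on WT replicate 1 alone. Its groups overlapped, and the arrays of the same genotype differed from each other by 5.44 times in WT and 6.67 times in KO. The suffix _x_at or _s_at marks a probe set whose probes may match more than 1 transcript, so these Dmp1 signals could include related sequences.

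**Figure D1:**
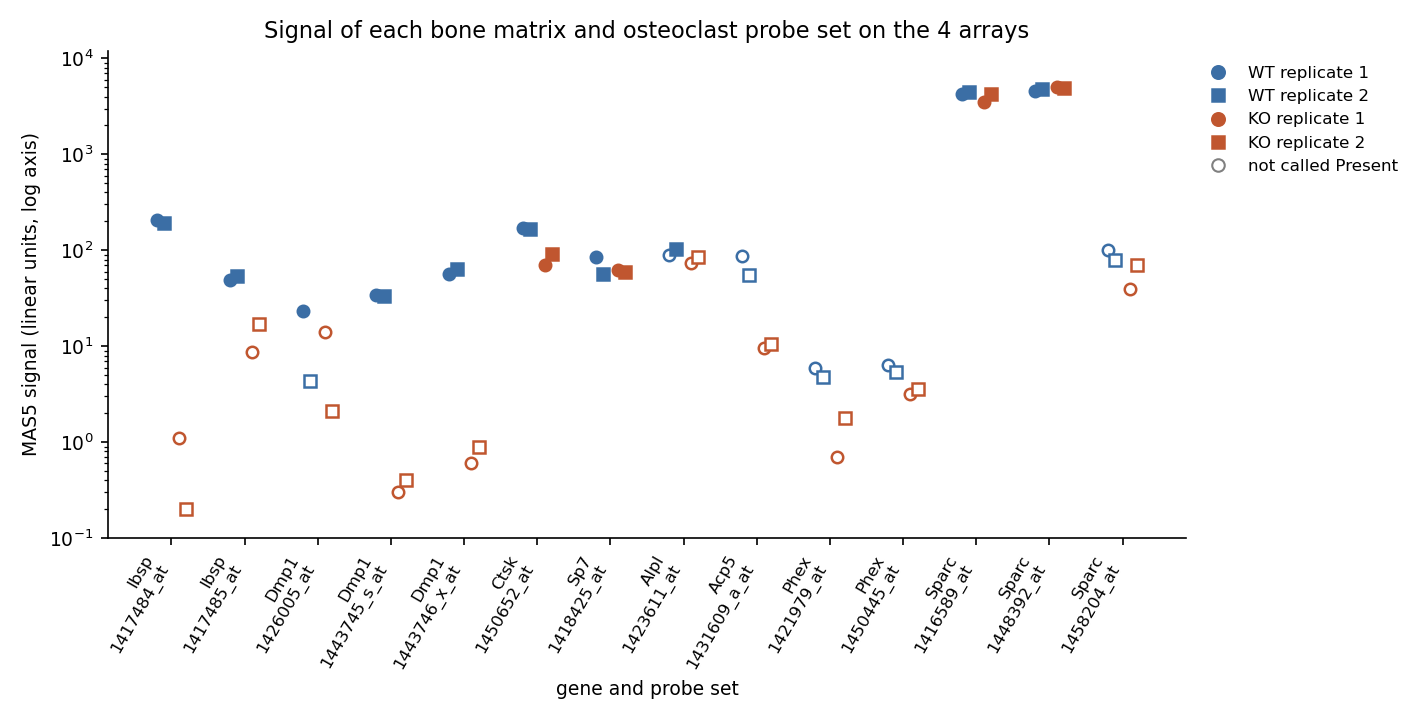
MAS5 signal (linear units, on a log axis) of the 14 probe sets of bone matrix and osteoclast genes on each of the 4 arrays, with WT in blue, KO in orange, and open symbols where the probe set was not called Present. Ibsp at 1417484_at and Dmp1 at 1443746_x_at are Present in WT and read 1.1 or less in KO, whereas the 2 bright Sparc probe sets lie between 3488 and 5020 on all arrays.

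Ctsk encodes cathepsin K, the protease with which osteoclasts digest collagen, although fibroblasts and other cells can also make it. Its probe set, 1450652_at, read 172 and 166 on the WT arrays, and KO gave 70.1 and 91.0. All 4 arrays were Present and the groups did not overlap, so this difference was measured on both sides. The fitted log2 difference, KO minus WT, was -1.08 ± 0.21 (moderated SE, n = 2 arrays a group), which is 2.11-fold lower. Among the 16420 probe sets Present on all 4 arrays, it was the 56th largest fitted fall. Ctsk was taken up for this fall, so the rank is a description only. Unlike Ibsp and Dmp1, Ctsk remained detected in KO. In bulk tissue, fewer cells of a type and less RNA per cell cannot be told apart, for these genes and for the lists that follow.

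The start regions of these 3 genes are shown because their transcripts read lower side by side and because Ibsp and Dmp1 are neighbours on the chromosome. The windows run from 250 bases before to 50 bases after the transcription start, 5′ to 3′ on the gene's strand, from RefSeq on GRCm38.p6. Capitals mark any match to 4 short motifs on either strand.
Ibsp, chr5:104299037-104299336, plus strand: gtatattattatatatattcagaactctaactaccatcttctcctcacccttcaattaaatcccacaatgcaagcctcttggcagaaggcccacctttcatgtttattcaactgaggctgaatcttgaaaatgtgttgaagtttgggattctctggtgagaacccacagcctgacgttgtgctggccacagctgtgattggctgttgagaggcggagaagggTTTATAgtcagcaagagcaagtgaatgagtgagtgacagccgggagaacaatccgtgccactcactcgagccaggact
Dmp1, chr5:104197325-104197624, plus strand: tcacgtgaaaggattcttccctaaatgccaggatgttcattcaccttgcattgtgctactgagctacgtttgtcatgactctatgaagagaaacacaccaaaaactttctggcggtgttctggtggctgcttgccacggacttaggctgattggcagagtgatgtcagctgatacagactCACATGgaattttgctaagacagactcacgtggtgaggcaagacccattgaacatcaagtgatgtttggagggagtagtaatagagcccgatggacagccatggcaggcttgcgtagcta
Ctsk, chr3:95498960-95499259, plus strand: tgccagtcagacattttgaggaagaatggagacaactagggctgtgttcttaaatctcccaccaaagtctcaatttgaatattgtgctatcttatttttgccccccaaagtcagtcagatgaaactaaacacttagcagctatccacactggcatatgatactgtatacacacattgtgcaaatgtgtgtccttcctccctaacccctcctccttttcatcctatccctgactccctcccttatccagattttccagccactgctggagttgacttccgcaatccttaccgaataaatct
The motifs were the core bound by RUNX factors, ACCACA (reverse TGTGGT), the homeodomain core TAATTA, which is its own reverse complement, an E-box of the kind bound by MITF, CACATG (reverse CATGTG), and the TATA box TATAAA (reverse TTTATA).

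In the Ibsp window, the single match was a TATA box read on the opposite strand, TTTATA at position -28, counting the start as position 1. A TATA box in this inverted orientation is known for the bone sialoprotein gene. The Dmp1 window held a single CACATG at position -70, and the window at a second RefSeq start of Dmp1 held ACCACA at position -164. The Ctsk window held none of the 4 motifs. RefSeq windows were found for 9 of the 10 genes, 14 windows in all. ACCACA or its reverse was in 4 of the 14, against 16.8% of all 32851 windows of the same length. CACATG or its reverse was in 4 of 14 (14.2% of all), TATAAA in 3 (13.6%) and TAATTA in 1 (5.29%). In the Runx2 window a match to ACCACA and a match to CACATG overlapped. These matches describe the letters in the windows only.

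Sparc encodes osteonectin, a collagen-binding protein that is abundant in bone but is also made by fibroblasts and endothelium. It was bright on every array. Probe set 1416589_at read 4288 and 4464 for WT, against KO signals of 3488 and 4225, and 1448392_at read 4518 and 4841 in WT, with KO at 5020 and 4958. The KO arrays lay below the WT arrays at the former and above them at the latter. The fitted log2 differences were -0.19 ± 0.10 and 0.093 ± 0.089 (SE, n = 2). A dim Sparc probe set, 1458204_at, was Present on no array, at 99.5 and 78.7 on the WT arrays, and KO gave 39.3 and 69.4.

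Sp7 encodes osterix, a zinc-finger transcription factor that osteoblast precursors need to mature. It was Present on all 4 arrays, with 85.4 and 56.4 for WT, against KO signals of 61.9 and 59.1. Both KO arrays lay within the WT range, and the fitted log2 difference was -0.20 ± 0.27 (SE, n = 2). Without WT replicate 1 it was 0.10, so its sign rested on that array.

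Alpl encodes tissue-nonspecific alkaline phosphatase, which removes pyrophosphate and so lets mineral form. It read 89.8 and 102.5 in WT, with KO at 73.2 and 84.7, with a Present call on WT replicate 2 alone and a Marginal call on KO replicate 1. The KO signals lay below the WT signals, but neither genotype was Present on both arrays and the probe set was not tested. Phex encodes an endopeptidase of osteoblasts and osteocytes that controls phosphate handling. Its probe sets were Present on no array, and all their signals lay between 0.7 and 6.3.

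Acp5 encodes tartrate-resistant acid phosphatase, the classical enzyme stain for osteoclasts. Its probe set, 1431609_a_at, read 86.5 and 55.8 on the WT arrays, and KO gave 9.6 and 10.6, and it was Present on no array. The detection p-values were 0.171 and 0.246 on the WT arrays, then 0.726 and 0.696 on the KO arrays. The KO signals were the lower ones, but both groups were at background by these calls, so no fold is given.

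Over the 8 genes, 8 probe sets of 5 genes were Present on both arrays of a genotype and could be fitted. Of these 8, 5 passed the adjusted threshold of 0.05 in limma with a lower KO signal (Ibsp and Dmp1 with 2 each, Ctsk with 1) and 0 with a higher one. Over all 19065 probe sets tested, 0.960% were called lower and 0.383% higher, and since the same contrast chose the genes, the count is a description from which nothing is read. The count fell to 1 without WT replicate 1 (Ibsp 1417484_at) and to 2 without WT replicate 2 (that probe set and Ctsk). The 4 probe sets of Ibsp and Dmp1 among them were Present on both WT arrays and on no KO array, as were 1.86% of all probe sets tested, while 2.34% were Present in KO alone. At 6 of the 8 fitted probe sets both KO arrays lay below both WT arrays. Of all tested probe sets across the array, 22.5% did so and 25.0% had both KO arrays above. Of the 6 that were not tested, 5 did so, which makes 11 of the 14, but no array-wide share was taken for untested probe sets. These counts too are a description, since the same contrast chose the genes.

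**Figure D2:**
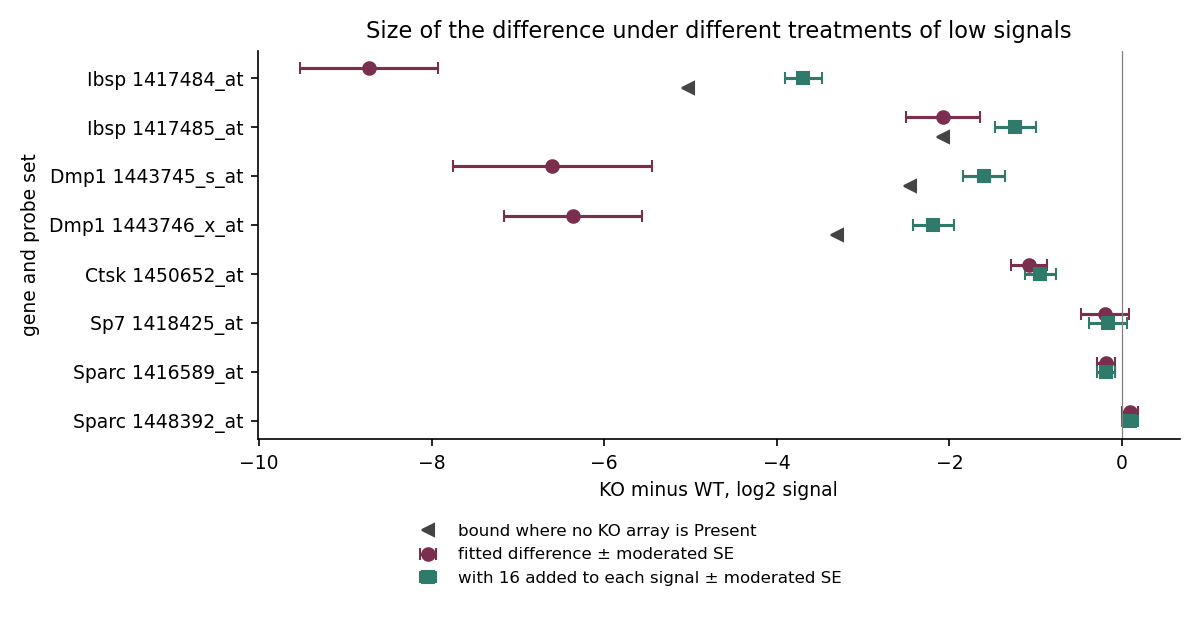
KO minus WT difference in log2 signal for the 8 fitted probe sets of bone matrix and osteoclast genes, as fitted (circles), with 16 added to each signal (squares), both with the moderated SE, and as the bound used where no KO array was Present (triangles). For Ibsp at 1417484_at the difference is -8.73 as fitted, -5.03 as a bound and -3.69 with the offset, while for Ctsk, Sp7 and Sparc the fitted and offset values nearly coincide.

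The size of the Ibsp and Dmp1 differences depended on how signals near 0 were treated. With 16 added to every signal before the log, the Ibsp difference at 1417484_at was -3.69 ± 0.21 in place of -8.73 ± 0.80. That of Dmp1 at 1443746_x_at was -2.19 ± 0.24 in place of -6.36 ± 0.80. The Ctsk difference barely moved, at -0.95 ± 0.18. The direction was the same in every one of these.

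Other genes of osteoblasts, osteocytes and mineralisation were read from a list of 40, of which 34 had a probe set of their own and 21 could be tested, each at its brightest tested probe set. In limma, 3 fell in KO and 0 rose, where 0.815% of 10184 genes fell and 0.491% rose. Mmp13, a collagenase of late cartilage and growing bone, read 79.1 and 105 in WT, with KO at 2.1 and 3.9. It was Present in WT alone, as were 1.34% of all genes tested (2.11% in KO alone), and it fell at least 15.0-fold (adjusted p = 0.000156), having entered the test through its WT calls. Col1a1, which encodes the major chain of type I collagen, had WT signals of 2165 and 2206 and fell 1.66-fold to 1330 and 1301 (adjusted p = 0.00199). Col1a2, the other chain, had 2796 and 2999 and fell 1.46-fold to 1999 and 1960 (adjusted p = 0.0118), a call that was lost without WT replicate 2 (adjusted p = 0.102). At other probe sets, Col1a1 stood at -0.38 ± 0.12 and did not pass (1455494_at, adjusted p = 0.172), and Col1a2 passed at -0.49 ± 0.11 (1423110_at, adjusted p = 0.0402). A dim Col1a2 probe set, 1446326_at, had overlapping groups and stood at 0.0054 ± 0.48 (adjusted p = 0.998). Type I collagen is the main fibre of bone and also of skin, tendon and cardiac connective tissue. With no filter on detection, Mmp13, Col1a1 and Col1a2 did not pass (adjusted p = 0.0976, 0.0618 and 0.169), and with no variance trend Col1a1 and Col1a2 did not (adjusted p = 0.178 and 0.263).

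The 21 tested genes of that list had a median log2 difference of -0.25, against 0.035 over all 10184 genes. Of the 21, 16 stood below 0 and 5 above (4515 below and 5669 above over all genes), and 12 had both KO arrays below both WT arrays (20.6% of all genes, with 28.0% the other way). At an unadjusted p under 0.05 there were 8 lower and 1 higher, where 7.15% of all genes tested were lower and 8.43% higher. The list's genes lower at that level included Serpinf1, which encodes an antiangiogenic serpin made by osteoblasts (-0.79 ± 0.19, adjusted p = 0.0687 in limma), and Bgn, the matrix proteoglycan biglycan (-0.66 ± 0.16, adjusted p = 0.0737). At its other probe sets Bgn stood nearer 0, at -0.18 ± 0.17 (1437889_x_at, adjusted p = 0.638) and -0.20 ± 0.13 (1448323_a_at, adjusted p = 0.464). Serpinf1, Bgn and the next genes named from the lists for values that did not pass were chosen after their values were seen. The matrix proteins Postn (0.027 ± 0.10) and Mgp (-0.012 ± 0.11), which valves and vessels also make, showed differences smaller than their errors. The list's count of falls was 5 without KO replicate 1, 1 without the variance trend and 0 without the detection filter.

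Several genes of the list that are known for bone or tooth were not called Present in either genotype. Of the 34, 10 were Present on no array, among them Mepe and Dspp, which belong to the same family of acidic matrix proteins as Ibsp and Dmp1, and Ifitm5, a membrane protein of osteoblasts. Ifitm5 read 67.2 and 88.8 on the WT arrays, and KO gave 25.4 and 22.5. Mepe read 4.1 and 6.3 for WT, against KO signals of 3.8 and 6.7. Tnfsf11, the RANK ligand that drives osteoclast formation, stayed at 4.9 or less at both of its probe sets.

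None of the other osteoclast genes that could be tested passed the threshold. Of 25 listed, 24 had a probe set of their own, 12 were tested, and 0 fell and 0 rose in limma. At an unadjusted p under 0.05 there were 2 lower and 1 higher, against the 7.15% and 8.43% of all genes. The median log2 difference was 0.066, with 5 of the 12 below 0 and 7 above. The gene with the smallest p was Csf1r, the receptor for the growth factor of macrophages and osteoclasts, at 532 and 612 in WT, with KO at 439 and 438 (-0.38 ± 0.13, adjusted p = 0.198). Tnfrsf11a, which encodes RANK, stood at -0.10 ± 0.26, and Nfatc1, the transcription factor of osteoclast differentiation that valve endocardium also uses, at -0.22 ± 0.19. The proton pump subunit Tcirg1 stood at -0.28 ± 0.20 and the chloride channel Clcn7 at 0.038 ± 0.18 at its brightest probe set. Others above 0 included Ostm1 (0.40 ± 0.17), the 1 gene higher at the unadjusted level, Mitf (0.21 ± 0.12) and Itgav (0.20 ± 0.12).

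Of the 24 osteoclast genes, 8 were Present on no array, including the fusion genes Dcstamp and Ocstamp, the receptor gene Oscar and Atp6v0d2, a pump subunit enriched in osteoclasts. Atp6v0d2 at 1434798_at read 31.1 and 31.1 on the WT arrays, and KO gave 7.8 and 5.2. Mmp9, the gelatinase of osteoclasts, read 132 and 178 for WT, against KO signals of 32.8 and 5.5 at 1416298_at, with a Present call on WT replicate 2 alone. In both, the KO arrays were the lower ones at signals that were mostly not called Present. Of the other undetected osteoclast genes, Dcstamp, Spi1 and Fos also read lower on each KO array than on either WT array. The same held for Itgb3 at 1421511_at and Plekhm1 at 1457195_at. The genotypes overlapped at the other Itgb3 and Plekhm1 probe sets and at those of Ocstamp and Oscar. Plekhm1 at 1454746_at had 87.1 and 105.3 in WT, with KO at 109 and 100.3. Oscar at 1451710_at had 22.6 and 31.4 in WT, with KO at 26.3 and 33.8. Macrophage genes, which share a lineage with osteoclasts, gave 8 tested genes of 15, with 0 falls and 0 rises in limma (1 at an unadjusted p under 0.05) and a median of -0.21. Their summed signal was 1867 and 1924 in WT, with KO at 1646 and 1596.

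**Figure D3:**
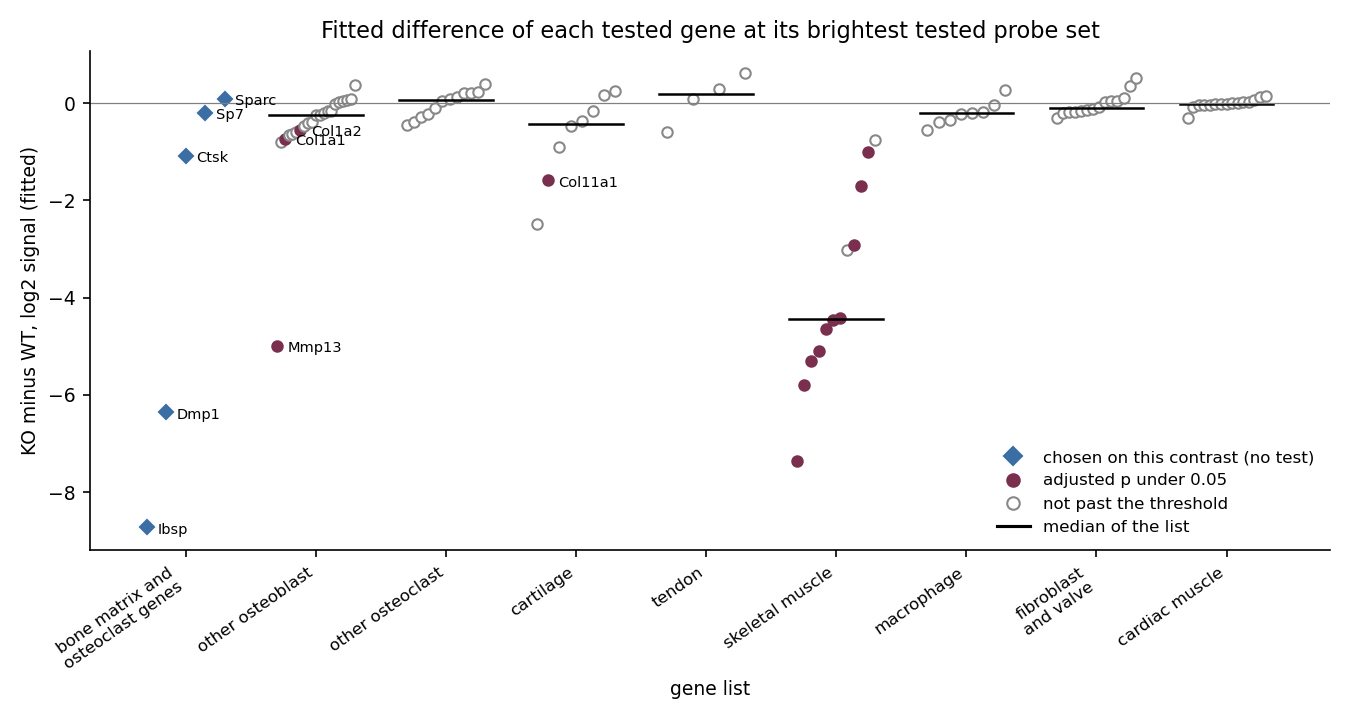
Fitted KO minus WT difference in log2 signal of each tested gene at its brightest tested probe set, by gene list. Diamonds are the genes chosen on this contrast, filled circles passed the adjusted threshold, open circles did not, and bars are list medians; the osteoclast list is centred near 0 (median 0.066), the other osteoblast list lies slightly below (-0.25) and the skeletal muscle list far below (-4.45).

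Genes of skeletal muscle also fell in KO. Of 22 genes of fast and embryonic skeletal muscle, 12 were tested, 10 fell and 0 rose (0.815% and 0.491% of all genes tested). The median of the 12 was -4.45, or -4.09 with genes undetected in KO at their bound. Of the 12, 4 were Present on all arrays and 6 on both WT arrays and no KO array (1.34% of all genes tested). Those not Present on both KO arrays entered the test through their WT calls, a route that favours falls. Mylpf, a fast myosin light chain, read 2972 and 2654 on the WT arrays, and KO gave 80.4 and 62.5 (at least 39.6-fold lower, adjusted p = 2.50e-10 in limma). Tnnt3, a fast troponin T, fell at least 55.9-fold, from a WT pair of 1153 and 1269 to 21.6 and 21.7. The myosin light chain Myl1 fell 7.59-fold but stayed Present in KO at 419 and 377, and the embryonic and perinatal myosin heavy chains Myh3 and Myh8 fell, with log2 differences of -4.47 ± 0.18 and -4.64 ± 0.23. The list's summed signal was 13697 and 12811 for WT, against KO signals of 1393 and 1403, and none of its genes had a signal of 0. Of the 22, 9 were Present on no array, including the myogenic factors Myod1 and Myog.

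Cartilage genes included 23 on the array and 8 tested, of which 1 fell and 0 rose (0.815% and 0.491% of all genes), with a median of -0.42. Col11a1, a minor fibrillar collagen of cartilage and other connective tissue, had WT signals of 141 and 143 and fell 3.01-fold to 44.3 and 50.3 (adjusted p = 0.00270 in limma). That call was lost with no filter on detection (adjusted p = 0.115) and with no variance trend (adjusted p = 0.0523). Hapln1, which links hyaluronan to aggrecan, read 25.2 on both WT arrays and 1.4 and 14.3 in KO and did not pass (adjusted p = 0.204). Col2a1 and Col10a1, the collagens that define cartilage and its hypertrophic zone, were Present on no array. Summed over the list, signals were 1160 and 1005 in WT, with KO at 744 and 786. The part of skeletal muscle, cartilage or macrophages in the Ibsp, Dmp1, Ctsk and Mmp13 values was not tested.

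At each gene's brightest tested probe set, the remaining tissue lists gave no calls in limma. Of 7 tendon genes, 4 were tested (2 at an unadjusted p under 0.05), with Thbs4, a matrix thrombospondin, at 0.61 ± 0.22 (adjusted p = 0.220). That gene passed without KO replicate 1 (adjusted p = 0.0389), where the lone KO array is assumed to vary like the WT pair. All 14 genes of cardiac fibroblasts and valves were tested (3 at an unadjusted p under 0.05), with a median of -0.11 and Pdgfra, a receptor of fibroblasts, at 0.52 ± 0.17 (adjusted p = 0.162). Among the 15 cardiac muscle genes (1 at an unadjusted p under 0.05, median -0.011), Nkx2-5, a cardiac transcription factor, had the smallest p (-0.30 ± 0.13, adjusted p = 0.280). Dimmer probe sets of 3 cardiac genes did fall, namely Myh6 at 1417729_at (-1.45 ± 0.25, adjusted p = 0.00977 in limma), Gata4 at 1418864_at (-0.997 ± 0.214, adjusted p = 0.0376) and Tnnt2 at 1440424_at (-0.48 ± 0.11, adjusted p = 0.0452). At the brightest probe sets these genes, which encode a cardiac myosin, a transcription factor and cardiac troponin T, stood at -0.079 ± 0.081, 0.021 ± 0.14 and 0.0073 ± 0.079. None of 6 lung epithelium genes was Present on any array.

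Dmp1 and Ibsp lie next to each other on mouse chromosome 5, followed by Mepe and Spp1, in a cluster of genes for acidic matrix proteins, by the RefSeq annotation of GRCm38.p6. The genes around them were read to see how the neighbourhood behaved. Of 9 listed neighbours on that chromosome, 8 had a probe set of their own (all but Pkd2), 4 were tested, and 0 passed in limma (1 at an unadjusted p under 0.05). Sparcl1, a relative of Sparc that lies before Dspp and Dmp1 in the order of the genes, read 1749 and 1916 on the WT arrays, and KO gave 1588 and 1792 (-0.12 ± 0.11, adjusted p = 0.636). Nudt9, a mitochondrial ADP-ribose hydrolase gene, read 181 and 200 for WT, against KO signals of 262 and 338 (0.65 ± 0.17, adjusted p = 0.0927). It passed without KO replicate 1, again with a lone KO array (adjusted p = 0.0278). Hsd17b11, a steroid dehydrogenase gene, stood at 0.033 ± 0.13, and Aff1, which encodes a transcription elongation factor, at -0.0094 ± 0.18 at its brighter probe set, and both turned sign under some alternatives.

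Dspp, Mepe and Hsd17b13, another dehydrogenase gene, were Present on no array, and Klhl8 was Present on KO replicate 2 alone. Of the genes of this neighbourhood read here, Dmp1 and Ibsp were the ones Present in WT and not in KO, and they were chosen for that fall. Dspp, Mepe, Hsd17b13 and Klhl8 had no Present call in WT to lose, so they could not have shown it. A further 3 genes listed as neighbours lie on another chromosome in this annotation and were left out.

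**Figure D4:**
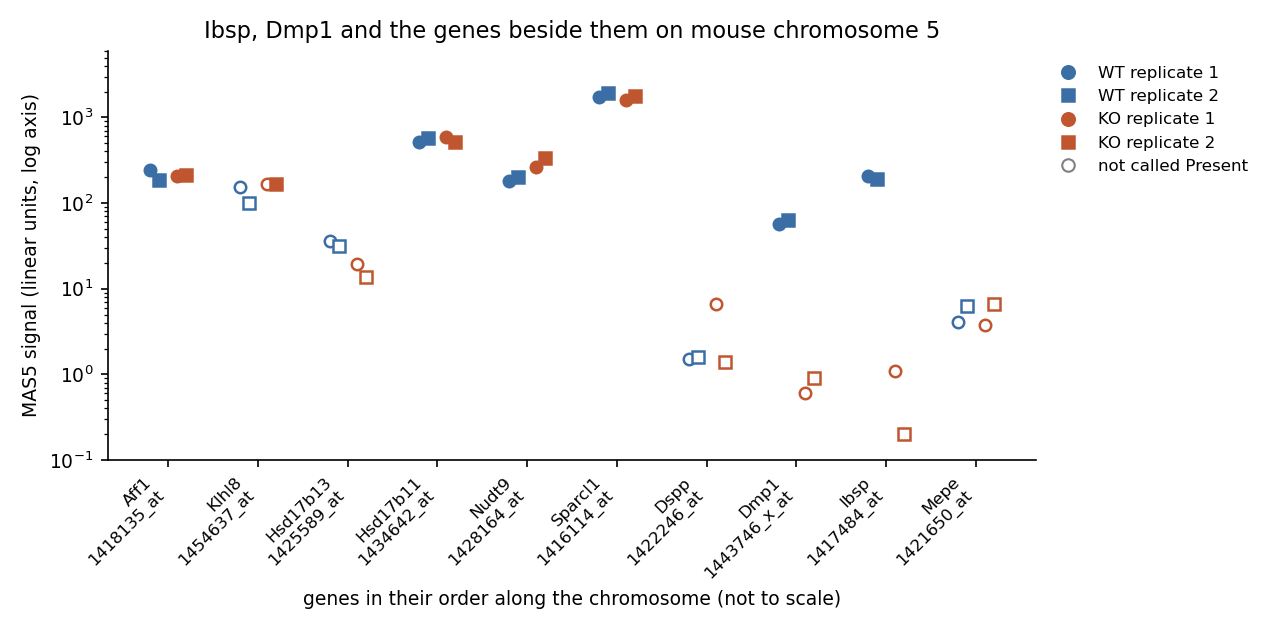
MAS5 signal (linear units, on a log axis) on each array for Ibsp, Dmp1 and their neighbours at their brightest probe sets, in the order of the genes along mouse chromosome 5, with WT in blue, KO in orange and open symbols where a probe set was not called Present. Dmp1 and Ibsp, which were chosen for their fall, alone pass from Present in WT to undetected in KO. Sparcl1 and Hsd17b11 are Present on all 4 arrays at like levels.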

How the data were processed

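Per the labels, 6 µg of total RNA was used for each array. The deposited signal is an intensity on a linear scale, made by the authors with MAS5 per the submitters' processing notes (version and genome build not given in the sources used here). Each deposited detection p-value comes with a Present, Marginal or Absent call, per the file headers. The deposited series table held the same values.

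The arrays already shared a 2%-trimmed mean of 150.0, so scaling changed nothing. Of 45037 probe sets (64 controls left out), only the 19065 with 2 Present calls in WT, in KO or in both entered the test. Symbols came from the platform annotation (932 probe sets name several genes, 9160 are not listed), updated with RefSeq. Log2 signals (4 signals of 0 set to 0.1) were fitted with limma 3.58.1 in R 4.3.3 (eBayes with a variance trend), with genotype as the only factor. The p-values are two-sided, adjusted by Benjamini-Hochberg over all probe sets, with 0.05 as the threshold. A gene's brightest probe set has the highest mean signal. The script was tested on simulated data.

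Named from the lists are genes past the threshold (at most 5 by p), otherwise the gene with the smallest p, and all listed neighbours. Other list genes were chosen after their values were seen. The genes and lists were chosen with earlier results of these data known. With 2 arrays a group, their number limits the precision. Whether pools shared animals is not stated, so p-values reflect only how far these pools differ, partly perhaps for technical reasons. Alternatives were quantile normalization, median centring, an offset of 16, other detection filters, other variance models, a replicate block and each array left out.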

Additional observations from a re-analysis of the deposited data

How the results depend on the processing

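Signals without a Present call give bounds only, and 2 arrays a group limit the precision. The array-wide counts of 73 higher and 183 lower probe sets became 7 and 30 with no filter on detection and 4 and 19 with no variance trend. With one array left out they ranged from 48 to 222 higher and from 110 to 428 lower. Deviations of arrays with the same replicate number in their titles did not correlate (-0.011 over 19065 probe sets). That does not show whether such arrays shared a litter or a batch. A fit with the replicate number as a block gave 271 and 450. In the other osteoblast list, the 3 falls became 0 with no filter, 1 with no variance trend and 5 with the replicate block, and with one array left out there were 2 to 5 falls and 0 to 1 rises. With the block, Thbs4 and Nudt9 passed (adjusted p = 0.0403 and 0.0193). The osteoclast list had 0 calls in all of these alternatives.

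With the offset of 16, the differences of Ibsp were -3.69 and -1.24 and those of Dmp1 -1.60 and -2.19. With one array left out, Ibsp at 1417484_at ranged from -9.96 to -7.50 and Ctsk from -1.27 to -0.89. Under the alternatives other than the offset and the leaving out of an array, the fitted differences of Ibsp, Dmp1 and Ctsk moved by less than their moderated SE in the main fit. Of the member probe sets, 1 of 14 passed with no filter on detection, where 30 of 45037 probe sets were called lower over the array. With no variance trend 3 of 8 passed (19 of 19065 lower over the array). With quantile normalization 4 of 8 passed (165 of 19065), and Ibsp 1417485_at was lost. With only probe sets Present on all arrays, Ctsk was the 1 call among 4 fitted (135 of 16420 lower over the array). The same contrast chose these genes, so these counts are a description only.

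Near-zero differences turned sign: Hsd17b11 with quantile normalization (-0.0049) and with one array left out (-0.048 to 0.11), Aff1 1418135_at with one array left out (-0.20 to 0.18), and Aff1 1425641_at with median centring (-0.0028), the offset (-0.0017) and one array left out (-0.47 to 0.52). The cause was not tested.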
